A study of Sus scrofa with 24 samples.

Results

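Atrophy ligases and autophagy genes were followed across 4 developmental stages of the pig. The set of 10 genes named for this purpose was FBXO32, TRIM63, FOXO1, FOXO3, UCHL1, TP53INP2, SQSTM1, GABARAPL1, BNIP3 and CTSL. A probe set, a group of short oligonucleotides that reads a transcript, was taken when the platform annotation gave it 1 gene symbol and that symbol was in the set. By this rule 7 of the 10 genes were measured, by 10 probe sets, out of 6765 genes named on the array. FBXO32, FOXO1 and FOXO3 each had 2 probe sets, and the other 4 genes had 1. TRIM63, BNIP3 and CTSL had no probe set under this rule.

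Messenger RNA was measured in 24 offspring of German Landrace gilts, with 1 Affymetrix Porcine Genome array per animal. The groups were 94 days post conception (94 dpc, before birth) and 1, 28 and 188 days post natum (dpn), with 6 animals each. The mothers of all 24 animals received a high protein diet during gestation, so the stages share that diet and no other diet was analysed here. The offspring of 3 gilts were used at each stage. The labels give neither mother nor sex, and littermates are not independent. No p-value below allows for litter, so each may be too small, by how much is unknown. The number of an animal only names its array within a stage.

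Skeletal muscle breaks down its proteins mainly by 2 routes, the ubiquitin-proteasome system and autophagy. In rodent and human muscle the FOXO transcription factors, when released from inhibition by insulin and AKT signalling, switch on genes of both routes. The F-box protein FBXO32 (atrogin-1) and the RING protein TRIM63 (MuRF1) are ubiquitin ligases that mark muscle proteins for the proteasome. In autophagy, ubiquitin-like proteins of the ATG8 family are attached to a growing membrane, and receptors such as SQSTM1 bind both these proteins and ubiquitinated cargo, which is then delivered to lysosomes.

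The sample labels name the tissue liver and the series title names muscle. The median signal of 11 measured skeletal muscle genes was 21165 to 31405 in 94 dpc arrays, 35077 to 52450 in 1 dpn arrays, 50822 to 67328 in 28 dpn arrays and 46061 to 65659 in 188 dpn arrays. The median of 13 plasma protein genes of liver was 31.6 to 12082 over all arrays and below the muscle median in each of them. In bulk tissue, fewer cells of a type and less RNA per cell cannot be told apart. In 188 dpn animals 1 to 3 the plasma protein median was 1680 to 12082, against 31.6 to 112 in 188 dpn animals 4 to 6. The part of these genes in the results was not tested. The 5′ to 3′ signal ratio of the control transcript EF1A was 0.0963 to 0.135 in 1 dpn animals 1 to 3, against 0.670 to 0.703 in 1 dpn animals 4 to 6. It was 0.988 to 1.05 in 94 dpc arrays, 0.638 to 0.696 in 28 dpn arrays and 0.512 to 0.656 in 188 dpn arrays. All 94 dpc arrays thus lay above all arrays after birth. In comparisons against 94 dpc the EF1A ratio and the stage cannot be told apart. The same ratio of a second control, GAPDH, was 0.780 to 0.870 in 94 dpc arrays. It was 0.424 to 0.616 in 1 dpn animals 1 to 3 and 0.907 to 0.996 in 1 dpn animals 4 to 6. The 28 dpn arrays gave 0.614 to 0.736 and the 188 dpn arrays 0.624 to 0.725. For GAPDH, 1 dpn animals 4 to 6 thus lay above all 94 dpc arrays. A list of 8 macrophage genes had a median of 1277 in 94 dpc animal 5. The deposited signals had been scaled so that the trimmed mean of each array was 497.9 to 499.2. The Tag control probe sets, which match no pig transcript, gave a background level of 74.7.

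FBXO32, UCHL1, SQSTM1 and FOXO1 rose in 188 dpn against 28 dpn. TP53INP2 and SQSTM1 rose in 1 dpn against 94 dpc, and with all arrays in the fit TP53INP2 did not pass the test between any stages after birth. In the same fit GABARAPL1 was the only one of the 7 genes that fell against 94 dpc, at 28 dpn. Differences are given as log2 of the ratio of geometric means with the standard error. A gene is called when the adjusted p of limma (Benjamini-Hochberg over all 23935 probe sets) is at most 0.05, with its brighter probe set standing for a gene that has 2.

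Of the 7 genes 4 rose in 188 dpn against 28 dpn and 3 did not pass. Over all probe sets 4.12% rose, 10.5% fell and 14.6% were called in either direction. The stages did not overlap for these 4 genes, and 12.2% of all probe sets showed no overlap. The median difference was 0.71 over the 7 genes and -0.18 over all probe sets. Against 94 dpc, 5 of the 7 rose at 188 dpn and 2 did not pass, beside 12.5% higher, 27.4% lower and 39.9% called over all probe sets. The median difference was 2.14 over the 7 genes and -0.29 over all probe sets. For 4 of the 7 these stages did not overlap, as for 29.1% of all probe sets. Both comparisons share the 188 dpn arrays.

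In 1 dpn against 94 dpc 2 of the 7 genes rose and 5 did not pass. All probe sets gave 10.1% higher, 20.8% lower and 31% called. The stages did not overlap for 2 genes, and for 13.7% of all probe sets. The median difference was 0.35 over the 7 genes and -0.15 over all. In 28 dpn against 1 dpn 1 gene rose and 1 fell, a share close to that of all probe sets, with 11.6% higher, 9.1% lower and 20.7% called. All 7 genes overlapped between these stages, where 9.4% of all probe sets did not. The median difference was -0.43 over the 7 genes and 0.017 over all probe sets.

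In 28 dpn against 94 dpc 1 gene rose and 1 fell, beside 10.4% higher, 17.5% lower and 27.8% called over all probe sets. For 3 genes these stages did not overlap, as for 22% of all probe sets, and the median difference was -0.074 over the 7 genes and -0.14 over all. Against 1 dpn, 5 of the 7 rose at 188 dpn, beside 14.1% higher, 20.8% lower and 34.9% called. All 7 genes overlapped between these stages, where 16.7% of all probe sets did not. The median difference was 0.75 over the 7 genes and -0.20 over all. That count of 5 came to 1 with only the arrays of both stages in the fit, and to 2 without 1 dpn animals 4 to 6.

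The scale of the arrays bears on these counts. Of all called probe sets, 28.2% were higher in 188 dpn against 28 dpn with the deposited scale, 42% after quantile normalization and 62.9% after centring the arrays on their medians. The same shares were 31.3%, 48.9% and 60.8% in 188 dpn against 94 dpc and 32.8%, 47.7% and 59.2% in 1 dpn against 94 dpc. They were 37.3%, 50.3% and 60.5% in 28 dpn against 94 dpc and 40.4%, 48.8% and 54.8% in 188 dpn against 1 dpn. In 28 dpn against 1 dpn they went the other way, with 56%, 52.5% and 49.5%. Centring moved the median over all probe sets to 0.25 in 188 dpn against 94 dpc, to 0.088 in 188 dpn against 28 dpn and to 0.17 in 1 dpn against 94 dpc. None of the 20 called differences of the 7 genes changed its sign under quantile normalization or centring, but some lost their call. Under both settings these were FOXO3 in 28 dpn against 1 dpn (adjusted p = 0.0556 and 0.0588) and GABARAPL1 in 28 dpn against 94 dpc (0.0941 and 0.135). Under quantile normalization alone they were FOXO1 in 188 dpn against 28 dpn (0.0662) and SQSTM1 in 188 dpn against 1 dpn (0.0886).

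**Figure D1:**
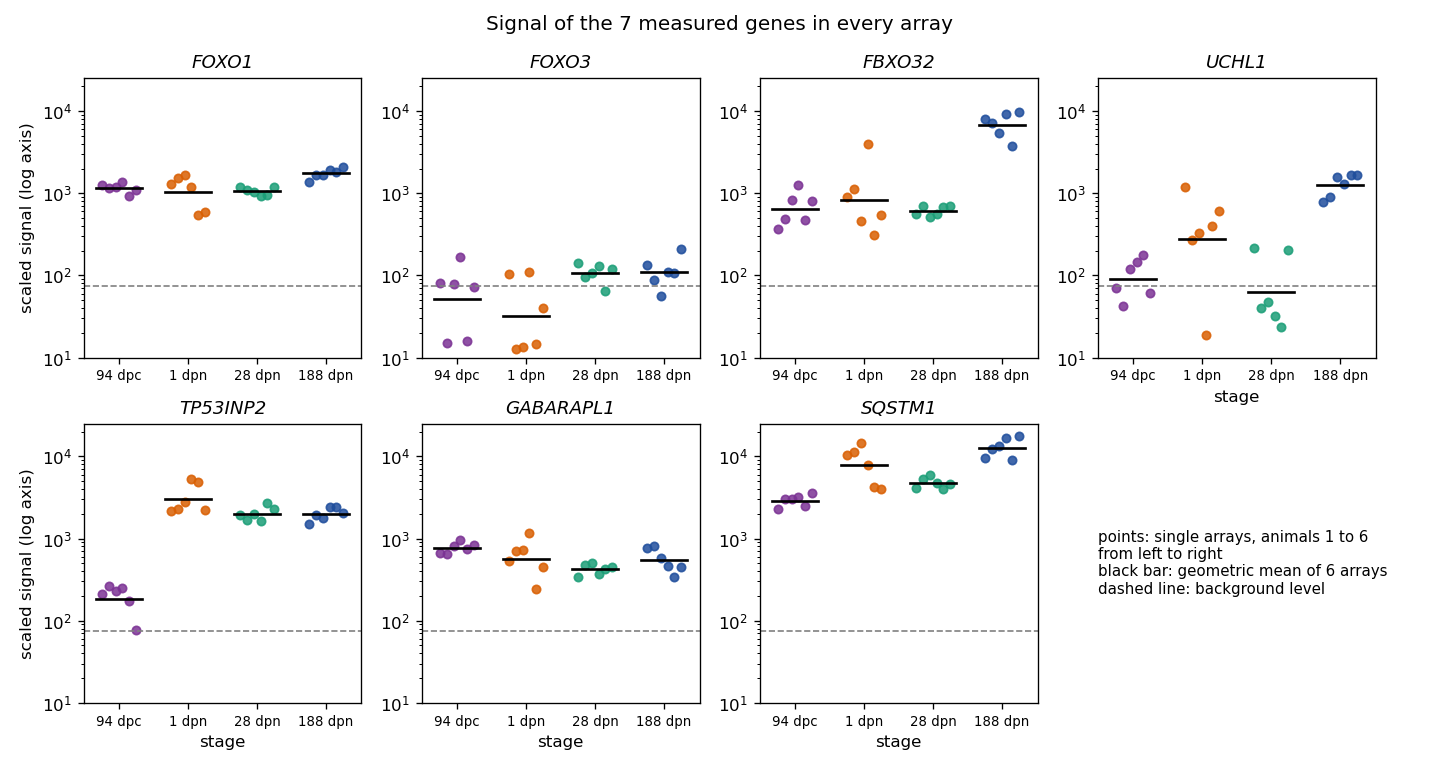
Scaled signal of each of the 7 genes (brighter probe set) in every array, on a log axis, by stage. Points are animals 1 to 6 from left to right, bars are geometric means of 6 arrays and the dashed line is the background level of 74.7. FBXO32 and UCHL1 stand high at 188 dpn, TP53INP2 stands low at 94 dpc, and the 1 dpn points of SQSTM1 and FOXO1 fall into a higher and a lower set.

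The plot of levels by stage shows how unequal the spreads are. FOXO1 had an SD in log2 of 0.19 at 94 dpc, 0.69 at 1 dpn, 0.16 at 28 dpn and 0.22 at 188 dpn. All 7 genes were spread more widely at 1 dpn than at 28 dpn and at 188 dpn.

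FOXO1 and FOXO3 are the transcription factors of the set. FOXO1 had a lowest, median and highest signal of 924, 1180.0 and 1369.6 at 94 dpc, 544, 1232 and 1652 at 1 dpn, 920.3, 1076 and 1202 at 28 dpn, and 1357, 1758 and 2114 at 188 dpn. All 6 animals at 188 dpn lay above all 6 at 28 dpn. Animal 1 of 188 dpn lay just under the highest animal of 94 dpc. FOXO1 rose by 0.71 ± 0.23 (SE) in 188 dpn against 28 dpn (adjusted p = 0.0401), by 0.59 ± 0.23 in 188 dpn against 94 dpc (adjusted p = 0.0439) and by 0.75 ± 0.23 in 188 dpn against 1 dpn (adjusted p = 0.0135). The first of these calls was lost under 15 of 26 alternative settings, the next under 14 and the last under 4, with the sign kept in each. With only both stages in the fit the calls against 28 dpn and 94 dpc held, and that against 1 dpn was lost (adjusted p = 0.089). With both probe sets averaged the 3 differences were 0.26, 0.30 and 0.27, and after centring the one against 94 dpc was 1.12. Leaving out any 1 animal of the stages compared, other than 188 dpn animal 1, ended the call against 28 dpn, with differences of 0.65 to 0.74. Without 1 dpn animals 4 to 6 the difference against 1 dpn was 0.23 (adjusted p = 0.285), and without 1 dpn animals 1 to 3 it was 1.26 (adjusted p = 0.000145). The levels at 94 dpc, 1 dpn and 28 dpn did not pass the test against each other with all arrays, with adjusted p of 0.654 to 0.935. Without 1 dpn animals 4 to 6, however, FOXO1 passed in 28 dpn against 1 dpn, with a difference of -0.47 (adjusted p = 0.0348), against 0.039 with all arrays.

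The dimmer FOXO1 probe set lay under background in 22 of 24 arrays and gave no call. At 188 dpn FOXO1 was 1357 to 1678 in animals 1 to 3, with the high plasma protein signal, against 1838 to 2114 in animals 4 to 6. Those sets did not overlap, and the part of the plasma protein signal in the FOXO1 level was not tested. Without 188 dpn animals 1 to 3 the FOXO1 difference against 28 dpn was 0.87 with an adjusted p of 0.0745.

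FOXO3, the factor most studied as an inducer of autophagy genes in mouse muscle, was dim on this array. Its brighter probe set lay under the background level in 9 of 24 arrays. The lowest, median and highest signals were 15.1, 74.9 and 167 at 94 dpc, 12.8, 27.6 and 109.6 at 1 dpn, 64.4, 113 and 143 at 28 dpn, and 56.2, 109.6 and 211 at 188 dpn. Every pair of stages overlapped, and 4 of the 6 animals of 1 dpn lay under background. As the 1 dpn mean of 32.5 was under background, FOXO3 was at least 1.43-fold higher at 28 dpn than at 1 dpn (adjusted p = 0.0466) and at least 1.46-fold higher at 188 dpn than at 1 dpn (adjusted p = 0.0274). These calls were lost under 17 and 10 of 26 alternatives, and both were lost when 1 dpn animal 2, 3 or 5 was left out. The other FOXO3 probe set, under background in 13 arrays, passed in none of the 6 comparisons by limma.

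**Figure D2:**
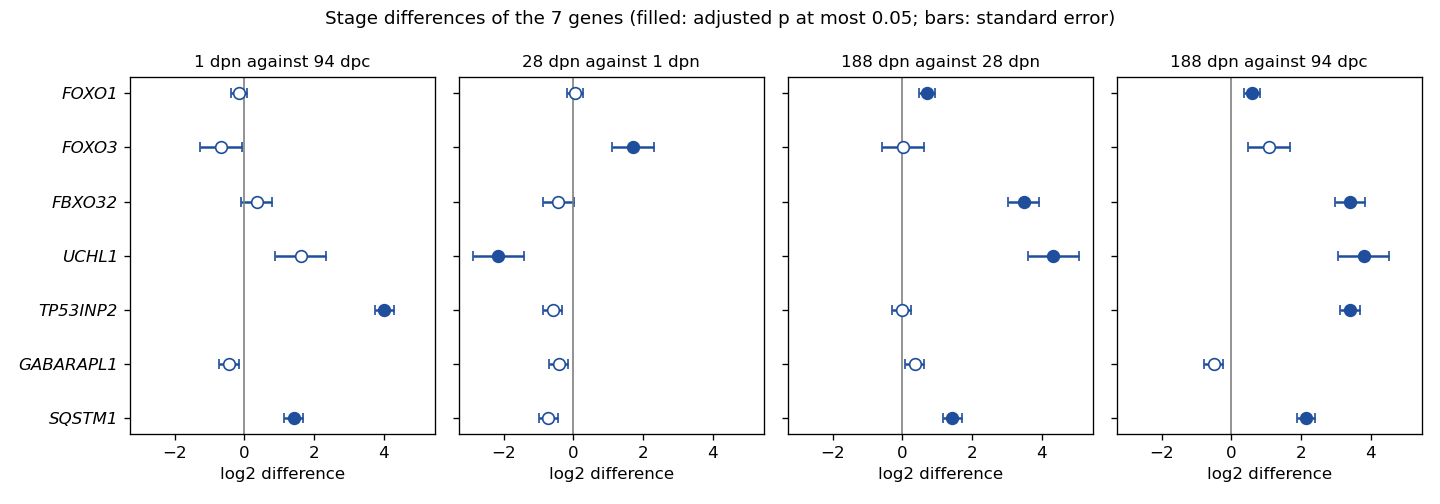
Log2 difference of each of the 7 genes in 4 comparisons, named above each panel. Filled points have an adjusted p of at most 0.05 and bars are the standard error. In 188 dpn against 28 dpn FBXO32 and UCHL1 lie furthest to the right, and in 1 dpn against 94 dpc TP53INP2 does, at 4.03.

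FBXO32, the muscle ligase also called atrogin-1, had the clearest late rise. Its brighter probe set gave 372, 639 and 1272 (lowest, median and highest) at 94 dpc and 309.6, 719 and 3927 at 1 dpn. It gave 511, 616 and 703 at 28 dpn and 3733, 7612 and 9739.6 at 188 dpn. All 188 dpn animals lay above every animal of 28 dpn and 94 dpc, while 1 dpn animal 4 lay above 188 dpn animal 5. The geometric mean was 6839 at 188 dpn against 611 at 28 dpn, a difference of 3.49 ± 0.44 (SE) or 11.2-fold (adjusted p = 1.12e-05). FBXO32 rose by 3.41 ± 0.44 in 188 dpn against 94 dpc (adjusted p = 1.2e-06) and by 3.06 ± 0.44 in 188 dpn against 1 dpn (adjusted p = 8.74e-06). Each of these 3 calls held under all 26 alternatives, and over them the 188 dpn against 28 dpn difference was 3.29 to 3.75.

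The 3 earlier stages of FBXO32 did not differ beyond their spread. The difference was 0.35 ± 0.44 in 1 dpn against 94 dpc (adjusted p = 0.59), -0.43 ± 0.44 in 28 dpn against 1 dpn (adjusted p = 0.555) and -0.074 ± 0.44 in 28 dpn against 94 dpc (adjusted p = 0.926). The spread was narrowest at 28 dpn, with an SD of 0.20 in log2, and widest at 1 dpn, with 1.29. Animal 4 alone, at 3927, set the 1 dpn mean above that of 94 dpc, and without it the 1 dpn against 94 dpc difference was -0.098.

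The dimmer FBXO32 probe set showed the same late rise, by 3.80 ± 0.80 in 188 dpn against 28 dpn (adjusted p = 0.00222) and 3.52 ± 0.80 in 188 dpn against 94 dpc (adjusted p = 0.00109). At 188 dpn it ranged over 1895 to 5483, at 28 dpn over 167 to 357 and at 94 dpc over 151 to 785, so 188 dpn overlapped neither. At 1 dpn it ranged over 5.73 to 1776. The brighter probe set exceeded the dimmer one by a ratio of 1.62 to 2.77 in 94 dpc arrays, between 1.79 and 3.48 in 28 dpn arrays, and between 1.78 and 2.29 in 188 dpn arrays. In 1 dpn animals 1, 2 and 3, with the low 5′ control signal, the ratio was 8.09, 11.0 and at least 6.22, the last a bound because the dimmer probe set was under background in animal 3, against 2.21, 2.41 and 2.02 in 1 dpn animals 4, 5 and 6. The ratio was higher in those 3 arrays than in any other array, and whether the 5′ control signal has a part in this was not tested.

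**Figure D3:**
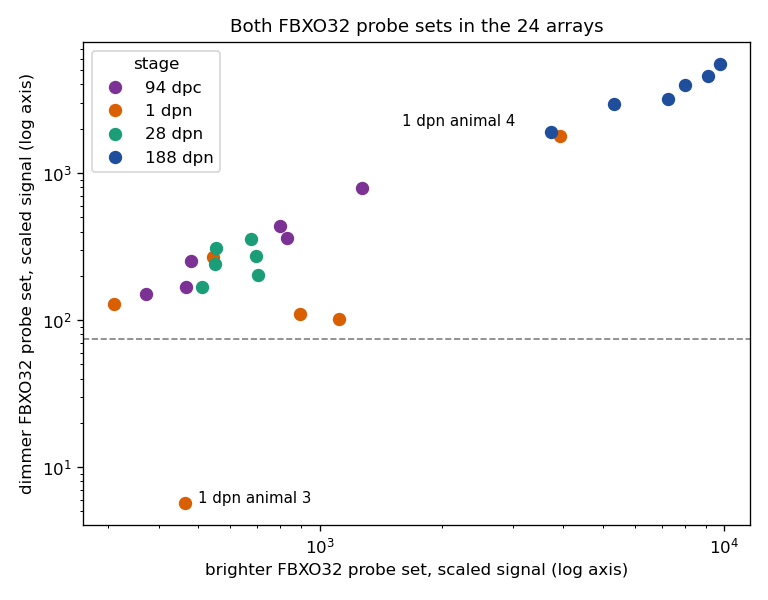
Both FBXO32 probe sets in the 24 arrays, on log axes, coloured by stage, with the background level of 74.7 as a dashed line for the dimmer probe set. The 188 dpn arrays lie together at the upper right with 1 dpn animal 4 beside them, and 3 of the 1 dpn arrays lie below the line of the rest.

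The plot of both FBXO32 probe sets separates the stage difference from the 1 dpn arrays. Outside 1 dpn animals 1 to 3, the probe sets kept a ratio between 1.62 and 3.48 in every array over the whole range of signal.

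UCHL1 is a deubiquitinase, an enzyme that takes ubiquitin off its adducts, and is best known as an abundant protein of neurons. Its lowest, median and highest signals were 42.6, 94.8 and 177 at 94 dpc, 19.0, 362 and 1203 at 1 dpn, 23.5, 43.5 and 213 at 28 dpn, and 781, 1446 and 1679 at 188 dpn. The 188 dpn animals lay above all animals of 28 dpn and 94 dpc. The 1 dpn animals overlapped every other stage, with animal 4 the lowest and animal 1 the highest. With the 28 dpn mean of 62.6 under background, UCHL1 was at least 16.9-fold higher at 188 dpn than at 28 dpn (log2 difference 4.34 ± 0.73, adjusted p = 0.000272). UCHL1 rose by 3.80 ± 0.73 in 188 dpn against 94 dpc (adjusted p = 0.000202), with 3 of the 6 arrays of 94 dpc under background. Both calls held under all 26 alternatives.

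Between the other stages UCHL1 depended on single 1 dpn arrays. In 28 dpn against 1 dpn it fell by 2.16 ± 0.73, at least 3.75-fold (adjusted p = 0.0386), a call lost under 14 of 26 alternatives, 9 of which left out 1 animal of either stage. Without 1 dpn animal 1 this difference was -1.74 (adjusted p = 0.101), and without 1 dpn animal 4 it was -2.94 (adjusted p = 0.000625). At 188 dpn against 1 dpn UCHL1 rose by 2.17 ± 0.73 (adjusted p = 0.0237), and without 1 dpn animal 4 the difference was 1.40 (adjusted p = 0.0532). In 1 dpn against 94 dpc the difference was 1.62 ± 0.73 (adjusted p = 0.0984), and without 1 dpn animal 4 it was 2.40 (adjusted p = 0.00209).

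As UCHL1 also marks nerve, 7 measured genes of nerve and Schwann cells were read beside it. Their summed signal was 926 to 1382 in 188 dpn arrays, against 1584 to 2519 in 28 dpn arrays, a sum made up mostly by the Schwann cell genes MBP and S100B. At 188 dpn the neuronal genes had geometric means of 44.9 (NEFL), 48.3 (GAP43), 8.11 (STMN2) and 26.5 (SNAP25), all under the background level, as was SOX10 of Schwann cells at 54.0. The part of nerve in the UCHL1 level was not tested. The other Schwann cell genes S100B and MBP were above it at every stage.

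TP53INP2 and GABARAPL1 act at the autophagosome membrane. TP53INP2 moves from the nucleus to the early autophagosome and binds ATG8 proteins, and it is abundant in muscle in mice. Its lowest, median and highest signals were 76.1, 219.7 and 261 at 94 dpc, 2177, 2511 and 5368 at 1 dpn, 1656, 1966 and 2675 at 28 dpn, and 1522, 1968 and 2422 at 188 dpn. Every animal after birth lay above every animal of 94 dpc. The mean of 2008 at 28 dpn was higher by 3.43 ± 0.28 (adjusted p = 7.97e-09) and the mean of 1982 at 188 dpn by 3.41 ± 0.28 (adjusted p = 1.91e-09), against a mean of 186 at 94 dpc. The 1 dpn mean of 3035 gave the largest difference of the 7 genes at birth, 4.03 ± 0.28 (adjusted p = 1.34e-09), and all 3 calls against 94 dpc held under the 26 alternatives of each.

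After birth the TP53INP2 levels did not pass the test against each other with all arrays. The difference was -0.60 ± 0.28 in 28 dpn against 1 dpn (adjusted p = 0.142), -0.61 ± 0.28 in 188 dpn against 1 dpn (adjusted p = 0.0951) and -0.019 ± 0.28 in 188 dpn against 28 dpn (adjusted p = 0.98). In 188 dpn against 1 dpn it passed with 64 added before log2 (-0.60, adjusted p = 0.0366) and without 1 dpn animals 1 to 3 (-0.96, adjusted p = 0.0378). The 1 dpn animals 4 and 5, at 5368 and 4836, lay apart from the other 4 of that stage, which gave 2177 to 2753. At 188 dpn TP53INP2 was 1522 to 1909.7 in animals 1 to 3, against 2026 to 2422 in animals 4 to 6, without overlap between these sets, and the part of the plasma protein signal was not tested.

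GABARAPL1 is a member of the ATG8 family and, in mouse muscle, a FOXO3 target. It gave 640.2, 778 and 971 at 94 dpc, 240.4, 618 and 1165 at 1 dpn, 344, 438 and 503 at 28 dpn, and 339, 519.7 and 814 at 188 dpn. All 28 dpn animals lay below all 94 dpc animals, and the other pairs of stages overlapped. GABARAPL1 fell by 0.86 ± 0.28 in 28 dpn against 94 dpc (adjusted p = 0.0232), but with centred arrays the difference was -0.60 (adjusted p = 0.135), with quantile normalization -0.62 (adjusted p = 0.0941) and without 28 dpn animal 1 -0.80 (adjusted p = 0.051). It did not pass in the other 5 comparisons, with adjusted p of 0.158 to 0.875.

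GABARAPL1 also differed within 188 dpn, with 575 to 814 in animals 1 to 3, against 339 to 465 in animals 4 to 6. This order was the reverse of that of FOXO1 and TP53INP2 in the same arrays. Without animals 1 to 3 the 188 dpn against 94 dpc difference was -0.90 (adjusted p = 0.0404), against -0.51 (adjusted p = 0.158) with all arrays.

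SQSTM1 (p62) is the receptor that links ubiquitinated cargo to ATG8 proteins and is itself degraded by autophagy. Its lowest, median and highest signals were 2271, 3032 and 3629 at 94 dpc, 4006, 9086 and 14604 at 1 dpn, 4052, 4659 and 5917 at 28 dpn, and 9126, 12974 and 17686 at 188 dpn. No animal of a later stage lay as low as the highest animal of 94 dpc, and all 188 dpn animals lay above all 28 dpn animals. SQSTM1 rose by 1.42 ± 0.27 in 1 dpn against 94 dpc (adjusted p = 0.000335), by 1.43 ± 0.27 in 188 dpn against 28 dpn (adjusted p = 0.000813) and by 2.14 ± 0.27 in 188 dpn against 94 dpc (adjusted p = 9.92e-07). These 3 calls held under all 26 alternatives.

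The mean of SQSTM1 at 28 dpn, 4744.5, stood between the 2901 of 94 dpc and the 7789 of 1 dpn. In 28 dpn against 1 dpn the difference was -0.72 ± 0.27 (adjusted p = 0.0639), and in 28 dpn against 94 dpc it was 0.71 ± 0.27 (adjusted p = 0.0538). The 28 dpn and 94 dpc animals did not overlap, and the difference passed under 9 of 26 alternatives. With only both stages in the fit its adjusted p was 0.00339. The SD of SQSTM1 in log2 was 0.25 at 94 dpc and 0.21 at 28 dpn, against 0.77 at 1 dpn, and the fit of all arrays pools these. In 188 dpn against 1 dpn SQSTM1 rose by 0.72 ± 0.27 (adjusted p = 0.043), a call lost under 13 of 26 alternatives, among them each of 7 animals left out in turn. Without 1 dpn animals 4 to 6 that difference was 0.11 (adjusted p = 0.752), and without 1 dpn animals 1 to 3 it was 1.33 (adjusted p = 0.000436). The 28 dpn against 1 dpn difference was -1.32 (adjusted p = 0.000155) without animals 4 to 6 and -0.11 (adjusted p = 0.845) without animals 1 to 3.

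At 1 dpn SQSTM1 fell into separate sets, with 10270.2 to 14604 in animals 1 to 3, against 4006 to 7902 in animals 4 to 6. FOXO1 ran the same way in these arrays, with 1284 to 1652 in animals 1 to 3, against 544 to 1180 in animals 4 to 6. With 1 dpn animals 1 to 3 alone the SQSTM1 difference against 94 dpc was 2.03, and with animals 4 to 6 alone it was 0.82, and both passed. The FOXO1 difference against 94 dpc was 0.36 (adjusted p = 0.103) with animals 1 to 3 alone and -0.67 (adjusted p = 0.0238) with animals 4 to 6 alone, so its sign at birth rests on which arrays are kept. TP53INP2 and UCHL1 overlapped between these sets. Whether the 5′ control signal has a part in these levels was not tested.

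**Figure D4:**
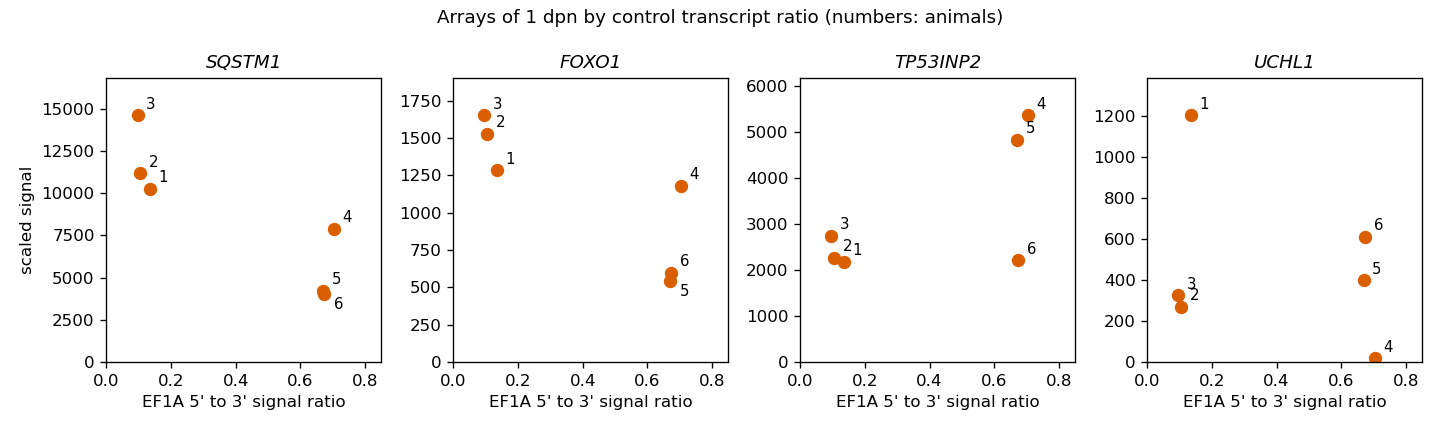
Signal of SQSTM1, FOXO1, TP53INP2 and UCHL1 in the 6 arrays of 1 dpn against the 5′ to 3′ signal ratio of the control transcript EF1A, with animal numbers. Animals 1 to 3, at ratios of 0.0963 to 0.135, lie above animals 4 to 6 for SQSTM1 and FOXO1 and not for TP53INP2 and UCHL1.

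Of the genes without a probe set under the rule, TRIM63 shares a probe set with TARDBP in the annotation, and the signal of each gene cannot be told apart. That shared probe set had geometric means of 2245 at 94 dpc, 1294 at 1 dpn, 1840.0 at 28 dpn and 2567 at 188 dpn. It fell by 0.79 ± 0.19 in 1 dpn against 94 dpc (adjusted p = 0.00322) and rose by 0.99 ± 0.19 in 188 dpn against 1 dpn (adjusted p = 0.000341). Where FBXO32 rose, in 188 dpn against 28 dpn, its difference was 0.48 ± 0.19 and did not pass (adjusted p = 0.107).

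CTSL, a lysosomal cysteine protease, is both a gene of its own and a synonym of CTSV in the RefSeq gene table. The CTSV probe set gave geometric means of 3068 at 94 dpc, 3076 at 1 dpn, 2510 at 28 dpn and 4792 at 188 dpn. It rose by 0.93 ± 0.22 in 188 dpn against 28 dpn (adjusted p = 0.0054), and the stages overlapped. The rule does not take it as CTSL. BNIP3, a mitophagy receptor, was not analysed here.

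Beyond the set, 7 lists of 196 genes of the same pathways were read, of which 122 were measured. Of the 122, 21 rose and 7 fell in 188 dpn against 28 dpn, and in 188 dpn against 94 dpc 47 rose and 25 fell. In 1 dpn against 94 dpc 30 rose and 27 fell, and in 28 dpn against 1 dpn 21 rose and 17 fell. Over all probe sets 4.12% rose and 10.5% fell in 188 dpn against 28 dpn, and 12.5% and 27.4% in 188 dpn against 94 dpc. The same shares were 10.1% and 20.8% in 1 dpn against 94 dpc, and 11.6% and 9.1% in 28 dpn against 1 dpn. They are the background to these counts, though the groups are unlike. All probe sets include 13668 without a gene symbol, and 34.4% have a mean under background. Each list gene, like each of the 7 genes, is represented by its brightest probe set. The part of this in the counts was not tested.

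**Figure D5:**
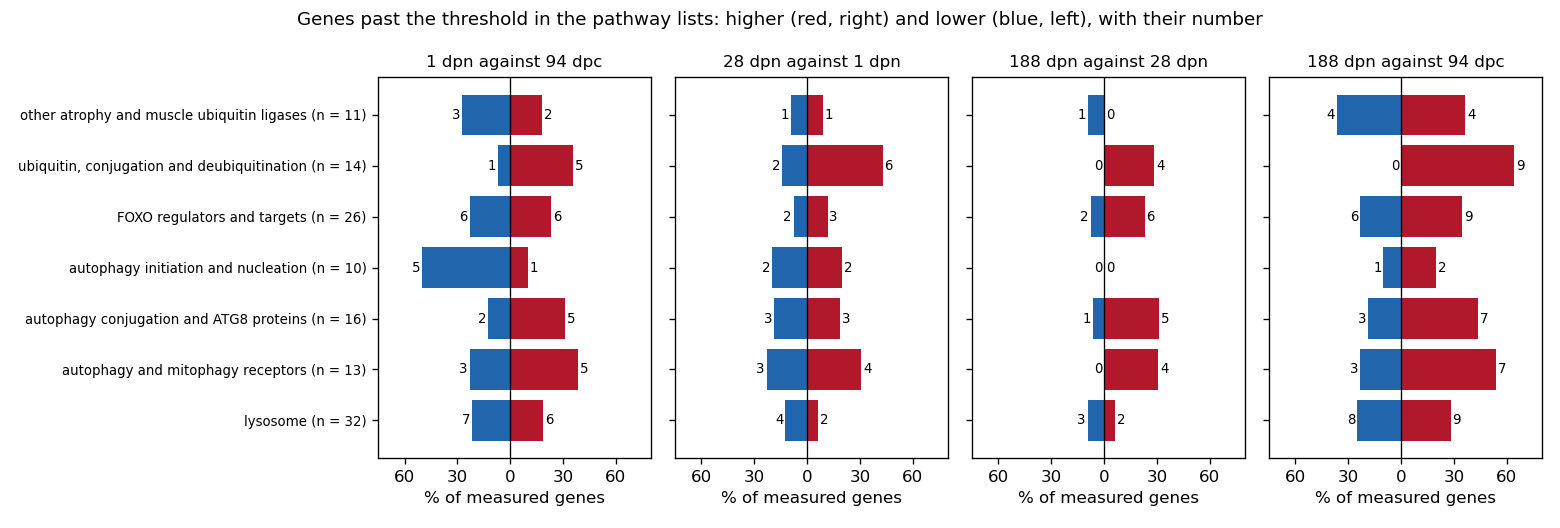
Percent of the measured genes of each pathway list that passed the test, higher to the right in red and lower to the left in blue, in 4 comparisons, with the number of genes beside each bar. In 188 dpn against 94 dpc 9 of 14 ubiquitin genes and 7 of 13 receptor genes were higher, beside 12.5% of all probe sets.

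Among 11 further ubiquitin ligases of muscle, none rose and 1 fell (9.09%) in 188 dpn against 28 dpn. Over all probe sets 4.12% rose and 10.5% fell, so the share that fell was close to that of all. With other settings 2 to 4 of the 11 were called there, for example 3 higher and 1 lower after centring. TRIM55 (MuRF2), the sarcomeric relative of TRIM63, fell by 0.99 ± 0.21 (adjusted p = 0.0021), and 4 of the 11 had an unadjusted p under 0.05 by limma. Against 94 dpc, 4 rose (36.4%) and 4 fell (36.4%) at 188 dpn, beside 12.5% and 27.4% of all probe sets. The list median was -0.57 against -0.29 over all probe sets. FBXO31, an F-box protein of cell cycle control, rose by 1.63 ± 0.27 (adjusted p = 2.93e-05) to a geometric mean of 3241 at 188 dpn, against 1045 at 94 dpc. CBLB, a ligase that acts on insulin receptor substrate, fell by 1.67 ± 0.21 (adjusted p = 7.17e-07).

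Of 14 genes for ubiquitin, its conjugation and its removal, 4 rose (28.6%) in 188 dpn against 28 dpn and none fell. In 188 dpn against 94 dpc 9 rose (64.3%) and none fell. All probe sets gave 4.12% higher and 10.5% lower in the first comparison, and 12.5% and 27.4% in the other. The list medians were 0.21 and 0.67. UCHL3, a relative of UCHL1, had a geometric mean of 3639 at 188 dpn against 859 at 94 dpc, a rise of 2.08 ± 0.25 (adjusted p = 5.75e-07). UBE2B, a ubiquitin-conjugating enzyme linked to muscle wasting in rats, rose by 1.57 ± 0.16 in 188 dpn against 94 dpc (adjusted p = 4.21e-08) and by 0.61 ± 0.16 in 188 dpn against 28 dpn (adjusted p = 0.0116). USP2, a deubiquitinase, rose by 1.87 ± 0.27 in 188 dpn against 94 dpc (adjusted p = 4.97e-06). The count of 4 at 188 dpn against 28 dpn was 1 without 188 dpn animals 1 to 3, where UBE2B had an adjusted p of 0.0678, and 1 at an adjusted p of 0.01.

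Of 26 regulators and targets of FOXO factors, 6 rose (23.1%) and 2 fell (7.69%) in 188 dpn against 28 dpn, with a list median of 0.40. All probe sets gave 4.12% higher and 10.5% lower there. In 188 dpn against 94 dpc 9 rose (34.6%) and 6 fell (23.1%), beside 12.5% and 27.4% of all probe sets. The count of 8 called against 28 dpn was 14 with array weights, 4 at an adjusted p of 0.01 and 5 without 188 dpn animals 1 to 3. It was also 5 when 188 dpn animal 2 or 28 dpn animal 1, 2 or 3 alone was left out. KLF15, a glucocorticoid-induced factor known in rats to raise FBXO32, had a geometric mean of 1075 at 188 dpn against 330.4 at 28 dpn, a rise of 1.70 ± 0.23 (adjusted p = 2.62e-05). FKBP5, another glucocorticoid-induced gene, rose by 1.45 ± 0.44 (adjusted p = 0.0294), a call lost on leaving out 6 of the 12 animals in turn. CCNG2, a cyclin induced by FOXO factors in other cells, rose by 1.57 ± 0.30 (adjusted p = 0.000892). PDK4, the kinase that inactivates pyruvate dehydrogenase, was 13586 at 188 dpn against 370.3 at 94 dpc, a rise of 5.20 ± 0.44 (adjusted p = 3.46e-09).

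At birth the same FOXO list gave 6 higher (23.1%) and 6 lower (23.1%) in 1 dpn against 94 dpc. Over all probe sets 10.1% were higher and 20.8% lower, so the share of lower genes was close to that of all. NR3C1, the glucocorticoid receptor, fell by 3.20 ± 0.54 (adjusted p = 0.000109) to 82.7 at 1 dpn, against 759.6 at 94 dpc. MSTN (myostatin), a growth inhibitor of muscle, was at least 2.99-fold lower at 1 dpn than at 94 dpc (adjusted p = 4.95e-05). Both rose again in 28 dpn against 1 dpn, NR3C1 by 2.58 ± 0.54 (adjusted p = 0.00162) and MSTN at least 2.34-fold (adjusted p = 0.000405). The size for NR3C1 moved with the arrays and probe sets used. Its 28 dpn against 1 dpn difference was 0.97 without 1 dpn animals 1 to 3, 4.19 without 1 dpn animals 4 to 6, and 0.67 (adjusted p = 0.0956) with the mean of its probe sets. In 1 dpn against 94 dpc NR3C1 was -1.59 without 1 dpn animals 1 to 3, -4.81 without animals 4 to 6 and -0.78 (adjusted p = 0.0365) with the mean of its probe sets. Whether the 5′ control signal has a part in the NR3C1 level was not tested.

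None of the 10 measured genes of autophagy initiation passed by limma in 188 dpn against 28 dpn, where 14.6% of all probe sets did. Of the 10 genes 2 had an unadjusted p under 0.05 there, and 2 passed after centring. In 1 dpn against 94 dpc 1 rose and 5 fell, beside 10.1% higher and 20.8% lower over all probe sets. The list median was -0.30 there, against -0.15 over all probe sets. With only both stages in the fit 3 fell and none rose. Among those that fell was TSC2, an inhibitor of mTOR signalling, by 1.05 ± 0.24 (adjusted p = 0.00177). TMEM41B, a lipid scramblase of the forming autophagosome, fell by 1.17 ± 0.16 in 188 dpn against 94 dpc (adjusted p = 2.31e-06), and the difference was -0.64 after centring.

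Of 16 genes of ATG8 conjugation, including ATG8 proteins other than GABARAPL1, 5 rose (31.2%) and 1 fell (6.25%) in 188 dpn against 28 dpn. In 188 dpn against 94 dpc 7 rose (43.8%) and 3 fell (18.8%). All probe sets gave 4.12% higher and 10.5% lower in the first comparison, and 12.5% and 27.4% in the other. MAP1LC3A (LC3A), an ATG8 protein, rose by 1.83 ± 0.44 in 188 dpn against 94 dpc (adjusted p = 0.00164). MAP1LC3B (LC3B), its relative, rose by 0.63 ± 0.17 in 188 dpn against 28 dpn (adjusted p = 0.0124). ATG4D, a protease that processes ATG8 proteins, rose by 1.51 ± 0.15 at birth (1 dpn against 94 dpc, adjusted p = 2.35e-07), when TP53INP2 rose, and ATG12, a ubiquitin-like conjugation protein, fell by 1.07 ± 0.15 (adjusted p = 1.27e-05). The count of 6 called in 188 dpn against 28 dpn was 3 after quantile normalization or when a gene's probe sets were averaged, 2 at an adjusted p of 0.01 and 1 without 188 dpn animals 1 to 3, where MAP1LC3B lost its call (adjusted p = 0.0954). The count of 10 against 94 dpc was 6 when probe sets were averaged.

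Of 13 other autophagy and mitophagy receptors, 4 rose (30.8%) and none fell in 188 dpn against 28 dpn, beside 4.12% and 10.5% of all probe sets. In 188 dpn against 94 dpc 7 rose (53.8%) and 3 fell (23.1%), beside 12.5% and 27.4% of all probe sets. The list median against 94 dpc was 0.76. OPTN (optineurin), a ubiquitin-binding receptor like SQSTM1, had geometric means of 5809 at 188 dpn against 2161 at 28 dpn, a rise of 1.43 ± 0.24 (adjusted p = 0.000312). BAG3, a co-chaperone that works with SQSTM1 on damaged muscle proteins, rose by 1.09 ± 0.14 in 188 dpn against 28 dpn (adjusted p = 2.1e-05) and by 1.55 ± 0.14 in 1 dpn against 94 dpc (adjusted p = 6.45e-08). With the mean of its probe sets the 1 dpn against 94 dpc difference of BAG3 was 0.79. BNIP3L, the relative of BNIP3, fell by 1.88 ± 0.26 in 1 dpn against 94 dpc (adjusted p = 9.82e-06). STBD1, a receptor for glycogen, fell by 1.90 ± 0.34 in 1 dpn against 94 dpc (adjusted p = 0.000193; -1.18 with the mean of its probe sets) and rose by 2.71 ± 0.34 in 28 dpn against 1 dpn (adjusted p = 9.06e-06).

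Of 32 measured lysosome genes 2 rose (6.25%) and 3 fell (9.38%) in 188 dpn against 28 dpn, shares close to the 4.12% and 10.5% of all probe sets. Against 94 dpc, 9 rose (28.1%) and 8 fell (25.0%) at 188 dpn, beside 12.5% and 27.4% of all probe sets. The list medians were -0.0081 against 28 dpn and -0.22 against 94 dpc. The count of 5 called against 28 dpn was 8 with array weights, 9 with only both stages in the fit and 3 without 188 dpn animals 1 to 3. CTSC, a lysosomal protease, rose by 1.22 ± 0.29 in 188 dpn against 28 dpn (adjusted p = 0.00538). CTSD (cathepsin D), the major aspartic protease, rose by 0.60 ± 0.15 (adjusted p = 0.00763). ATP6V1B2, a subunit of the proton pump, fell by 0.86 ± 0.16 (adjusted p = 0.000629), and the difference was -0.54 with the mean of its probe sets. In 1 dpn against 94 dpc 6 rose (18.8%) and 7 fell (21.9%), beside 10.1% and 20.8% of all probe sets. Without 1 dpn animals 1 to 3 the count of 13 called was 7.

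The genes whose pattern over the 24 arrays was most like that of FBXO32 were sought among 5724 genes with a mean above background. The measure was the root mean square difference of log2 signals, each centred on its own mean, which had a median of 1.75 over these genes. HSP70.2, a heat shock protein gene with near-identical relatives, came to 0.92, with geometric means of 2211 at 94 dpc, 3764 at 1 dpn, 4290.5 at 28 dpn and 25722 at 188 dpn. KLF15 came to 0.95 and SMYD2, a lysine methyltransferase, to 0.98. SMYD2 had geometric means of 862, 1262, 2329 and 5732 over the 4 stages in the same order, each higher than the one before, whereas the first 3 stages of FBXO32 did not pass the test against each other.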

How the data were processed

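GCOS 1.1.1 is named in the submitters' processing notes. Each deposited value is a linear signal intensity of a probe set on an array. Scaling and summary settings are not given in the sources used here. Of 24118 probe sets 183 controls were left out, and 23935 were tested on log2 of the signal, with no pseudocount and no filter. Gene symbols came from the platform annotation: it gives 1 symbol to 10069 of the tested probe sets, more than 1 to 198 and none to 13668. A gene with several probe sets was represented by the brightest. Background was the 95th percentile of 17 Tag control probe sets, a level above the mean of 34.4% of those tested. The number of arrays limits the precision. Where 1 stage mean was under background, the fold is at least the ratio to that level.

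Stages were compared with lmFit and eBayes of limma 3.58.1 (R 4.3.3), with 4 stage means over 24 arrays, leaving 20 residual degrees of freedom. The 6 comparisons were two-sided, and p-values were adjusted by the Benjamini-Hochberg method over every tested probe set. The scripts were tested on simulated data first. The members, lists, comparisons and alternatives were chosen with earlier results of these data known. Named were all members, up to 3 called genes with the largest difference per list and comparison, and the 3 genes most like FBXO32. Which of these the text describes was settled with their values known. Alternatives were quantile normalization, centring on the array median, 16 or 64 added before log2, the dimmest 30% left out, trend and robust settings, array weights, only both stages compared, a gene's mean over its probe sets, an adjusted p of 0.01, and arrays left out. Figures were drawn in matplotlib 3.10.9 under Python 3.11.15.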

Additional observations from a re-analysis of the deposited data

Results flagged for a closer look

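In 3 cases the signal of 1 array stood apart from the other 5 of its stage. The rule was Dixon's test at the 95% level on the linear signal, in 40 groups of 6 arrays. Chance would mark about 1 in 20 such groups if linear signals followed a normal distribution, which was not tested. The log2 signals, on which the stages were compared, were not tested in this way. FBXO32 was 3927.08 in 1 dpn animal 4 on the brighter probe set, where the other 5 animals gave 309.6 to 1115. In the same animal the dimmer FBXO32 probe set gave 1776.26, where the others gave 5.73 to 269. Both values lay within or just below the range of 188 dpn arrays, and both probe sets marked the same animal. The dimmer FOXO1 probe set gave 183.704 in 1 dpn animal 3, where the others gave 8.58 to 72.8, all under the background level of 74.7.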

How the results depend on the processing

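The 42 differences of the 7 genes were fitted again under 1092 alternatives in all, and 930 kept their direction and their side of the threshold, 96 lost a call, 28 gained one in the same direction and 38 turned direction. Of the 20 calls 11 held under every alternative run and 9 were lost under at least 1, and none turned. All 38 turns were of differences that were not called, 1 of the 38 passed after its turn (FOXO1 in 28 dpn against 1 dpn), and 9 of the 22 uncalled differences were called under at least 1 alternative.

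Counts of called genes moved as follows. In 188 dpn against 1 dpn the count of 5 was 1 at an adjusted p of 0.01 and with only both stages in the fit, 3 with array weights and with the mean of all probe sets, 2 without 1 dpn animals 4 to 6, 2 without 188 dpn animals 1 to 3, and 3 to 5 with each animal left out. In 28 dpn against 1 dpn FOXO3 and UCHL1 lost their calls with array weights (adjusted p = 0.0698 and 0.0699), and SQSTM1 gained one (adjusted p = 0.0476). The count of 2 there was thus 1 with array weights. It was also 1 with centring, with quantile normalization and with the mean of all probe sets, and 4 without 1 dpn animals 4 to 6, a setting chosen after seeing the data. By limma it was 0 at an adjusted p of 0.01 and with only both stages, without 1 dpn animals 1 to 3 and without 188 dpn animals 1 to 3, where 4, 4, 2 and 3 genes had an unadjusted p under 0.05, and 0 to 2 with each animal left out (3 or 4 genes unadjusted where it was 0). In 28 dpn against 94 dpc the count of 2 was 1 at 0.01 and with quantile normalization, and 1 to 2 with each animal left out. With each animal left out it was 2 to 3 in 1 dpn against 94 dpc, 3 to 4 in 188 dpn against 28 dpn and 4 to 5 in 188 dpn against 94 dpc.

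With the mean of all probe sets the sign turned for FBXO32 in 1 dpn against 94 dpc (-0.46) and 28 dpn against 1 dpn (0.28), FOXO1 in 1 dpn against 94 dpc (0.026) and 28 dpn against 94 dpc (0.039), and, outside the set, USP9X (-0.30) and WDR45B (0.24) in 28 dpn against 1 dpn. With centring it turned for FBXO32 in 28 dpn against 94 dpc (0.19), FOXO1 in 1 dpn against 94 dpc (0.17), 28 dpn against 1 dpn (-0.020) and 28 dpn against 94 dpc (0.15), GABARAPL1 in 188 dpn against 1 dpn (0.14) and 188 dpn against 94 dpc (0.026), and TP53INP2 in 188 dpn against 28 dpn (0.25). With quantile normalization it turned for FBXO32 (0.21) and FOXO1 (0.040) in 28 dpn against 94 dpc and GABARAPL1 in 188 dpn against 1 dpn (0.024), and with array weights for FOXO3 in 188 dpn against 28 dpn (-0.020). Without 1 dpn animals 4 to 6 it turned for FOXO1 in 1 dpn against 94 dpc (0.36) and 28 dpn against 1 dpn (-0.47, adjusted p = 0.0348), without 1 dpn animals 1 to 3 for GABARAPL1 in 188 dpn against 1 dpn (0.11), and without 188 dpn animals 1 to 3 in 188 dpn against 28 dpn for GABARAPL1 (-0.035) and TP53INP2 (0.18). With each animal left out the values ran from -0.098 to 0.63 for FBXO32 in 1 dpn against 94 dpc, from -0.71 to 0.025 in 28 dpn against 1 dpn and from -0.23 to 0.12 in 28 dpn against 94 dpc. They ran from -0.29 to 0.029 for FOXO1 in 1 dpn against 94 dpc and from -0.15 to 0.17 in 28 dpn against 1 dpn. They ran from -0.16 to 0.22 for FOXO3 and from -0.077 to 0.064 for TP53INP2 in 188 dpn against 28 dpn, and from -0.32 to 0.14 for GABARAPL1 in 188 dpn against 1 dpn. The cause of these turns was not tested.

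FOXO3 and UCHL1 lay under background in 9 and 8 of 24 arrays, which limits their folds to bounds. Mother, sex and array batch are not in the labels and could not be terms of the fit. No paired analysis was possible because the number of an animal only names its array within a stage.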
